A study of Oryctolagus cuniculus with 9 samples.

Results

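The levels of 10 macrophage genes were followed across 9 RNA sequencing libraries of primary rabbit parathyroid cells. They were MRC1, CD163, STAB1 and CD36, which are scavenger or endocytic receptors, VSIG4, ITGB2 and CSF1R, which are other receptors of the cell surface, and GPNMB, MPEG1 and MMP12. They are 10 of 19511 loci in the deposited table, each with 1 row under its symbol. They were chosen by their FPKM, which is higher in all of them in the libraries with gallic acid, so their high level there describes the choice and carries no test.

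Control cells (n = 3) were labelled wild type, untreated and day 0. H/R cells (n = 3) underwent hypoxia and reoxygenation, written 6H-6H and read here as 6 h of each, a culture model of ischaemia and reperfusion injury. GA+H/R cells (n = 3) were given gallic acid, a plant phenolic acid, at 1200 µM for 24 h ahead of the same 6 h and 6 h. The labels give H/R no matching pretreatment. Gallic acid and the time or handling of its 24 h therefore cannot be told apart in GA+H/R against H/R. The words "with gallic acid" below name the GA+H/R libraries only. The labels enter the injury in their genotype field and name no genetic change; they do not say how many animals or cultures gave the libraries, so the spread between libraries may be technical.

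Macrophages are phagocytes that live in most tissues, endocrine glands included. Their scavenger receptors bind modified lipoproteins, sugars, haemoglobin complexes and worn matrix and deliver them to the lysosome. Their survival depends on signals through the CSF1 receptor, whose ligands are made by stromal cells such as fibroblasts. In bulk RNA, more macrophages in a culture and more of a transcript in each macrophage cannot be told apart.

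Levels are FPKM, that is, fragments counted relative to the length of the transcript and to the size of the library. Their sum over all loci lay between 1648012 and 1696488 in control, between 730117 and 752065 in H/R and between 467499 and 516231 in GA+H/R, and read depth is unknown. A second scale was therefore used, in which each library is divided by its median ratio to the mean library over 8448 loci; these divisors were 1.77 to 1.96, 0.670 to 0.672 and 0.422 to 0.424 in the same order. Values on it are called relative to the median locus. FPKM values and their ratios are as deposited unless marked so. Log2 differences and the calls made on them are relative to the median locus unless marked as on deposited FPKM. Control 1 stood apart from controls 2 and 3, with which its log2 FPKM correlated across these loci at r = 0.981 and 0.979, against 0.997 between controls 2 and 3. The members' results are given with and without it, as are those calls of other named genes that change when it is left out. The labelled cell type was not borne out by its own markers: PTH was at or under 0.142 FPKM in every library, CHGA at or under 0.379 and GATA3 at or under 0.046, whereas the fibroblast collagen COL1A2 was at 4091 FPKM or more and fell in GA+H/R against H/R (log2 difference -1.003 ± 0.19, limma adjusted p = 0.00417); its part in the results below was not tested.

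The endocytic receptors were highest with gallic acid. MRC1, the mannose receptor that takes up glycoproteins ending in mannose, stood at 1.55, 42.6 and 46.5 FPKM in controls 1, 2 and 3. Its H/R libraries held 11.2, 10.6 and 11.2 FPKM and its GA+H/R libraries 85.5, 90.2 and 96.4. The lowest GA+H/R library was thus above every other library, H/R lay in a narrow band, and the controls spanned both sides of that band. The GA+H/R mean was 8.23 times the H/R mean as deposited and 13.1 times relative to the median locus.

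CD163, the receptor for complexes of haemoglobin and haptoglobin, had the same order at lower values. It was at 0.365, 3.83 and 4.03 FPKM in the controls, at 1.97, 3.73 and 2.69 in H/R and at 14.2, 13.3 and 13.1 in GA+H/R, a mean 4.85 times that of H/R (7.69 times relative to the median locus). STAB1, a receptor of macrophages and sinusoidal endothelium for SPARC and modified lipoprotein, differed from it in the order of H/R and control on deposited FPKM. Its controls were at 1.13, 5.93 and 7.96 FPKM, its H/R libraries at 11.96, 9.51 and 7.08, and its GA+H/R libraries at 33.8, 31.1 and 38.0. Here the H/R libraries overlapped controls 2 and 3 instead of lying below them, and GA+H/R was 3.61 times H/R (5.72 times relative to the median locus). Relative to the median locus every H/R library was above every control for both CD163 and STAB1. CD36, which takes up oxidised lipoprotein and long-chain fatty acids and is also made by platelets, adipocytes and endothelium, was at 0.616, 8.47 and 10.4 FPKM in the controls. It was at 3.15, 2.46 and 2.499 in H/R and at 22.5, 16.0 and 21.5 in GA+H/R, 7.40 times the H/R mean (11.7 times relative to the median locus).

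The other receptors followed with different sizes. VSIG4, a complement receptor of resident macrophages that binds fragments of C3, was at 1.39, 15.4 and 15.7 FPKM in the controls, at 10.5, 7.69 and 7.54 in H/R and at 31.3, 32.7 and 42.3 in GA+H/R. ITGB2, the CD18 chain shared by the leukocyte integrins, was listed at 0 in control 1 and at 3.03 and 2.84 FPKM in controls 2 and 3. It held 1.61, 1.87 and 1.75 FPKM in H/R and 11.3, 14.2 and 11.1 in GA+H/R. CSF1R, the receptor tyrosine kinase for CSF1 and IL34, moved least. Its controls were at 2.17, 3.18 and 3.35 FPKM, H/R at 3.80, 2.36 and 2.29, and GA+H/R at 7.87, 6.40 and 6.86. The GA+H/R mean was 4.14 times that of H/R for VSIG4, 7.001 times for ITGB2 and 2.503 times for CSF1R, and 6.56, 11.1 and 3.97 times relative to the median locus.

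Among the remaining members, MMP12, the secreted macrophage elastase, had the largest ratio. It was at 0.533, 11.6 and 10.7 FPKM in the controls, at 3.37, 3.24 and 3.95 in H/R and at 38.0, 40.9 and 35.9 in GA+H/R, 10.9 times the H/R mean (17.2 times relative to the median locus). MPEG1, perforin-2, a pore-forming protein that kills engulfed bacteria, was at 0.447, 15.0 and 21.2 FPKM in the controls. It reached 5.003, 5.69 and 2.19 in H/R and 39.8, 32.9 and 33.4 in GA+H/R, 8.23 times the H/R mean. GPNMB, a membrane glycoprotein that macrophages, osteoclasts and melanocytes make, was at 5.75, 51.3 and 52.1 FPKM in the controls, at 16.0, 15.6 and 14.9 in H/R and at 58.7, 58.9 and 59.5 in GA+H/R. For GPNMB the GA+H/R mean was 3.82 times the H/R mean but 1.13 times control 3 on deposited FPKM.

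All 10 members had every GA+H/R library above every H/R library, on both scales. Over all loci this held for 2.49% on deposited FPKM and for 17.3% relative to the median locus. The median member differed by 2.88 on the log2 scale between GA+H/R and H/R relative to the median locus, with a range from 1.79 ± 0.19 (SE) for CSF1R to 3.87 ± 0.57 for MMP12. On deposited FPKM the range was 1.09 to 3.12, beside a median of -0.50 over the 10996 loci tested. The authors' deposited table, whose single test spans the 3 groups, marks all 10 as significant, as it does 10917 of 19511 loci. That test includes the GA+H/R libraries by which the members were chosen, so their marks describe the choice.

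**Figure D1:**
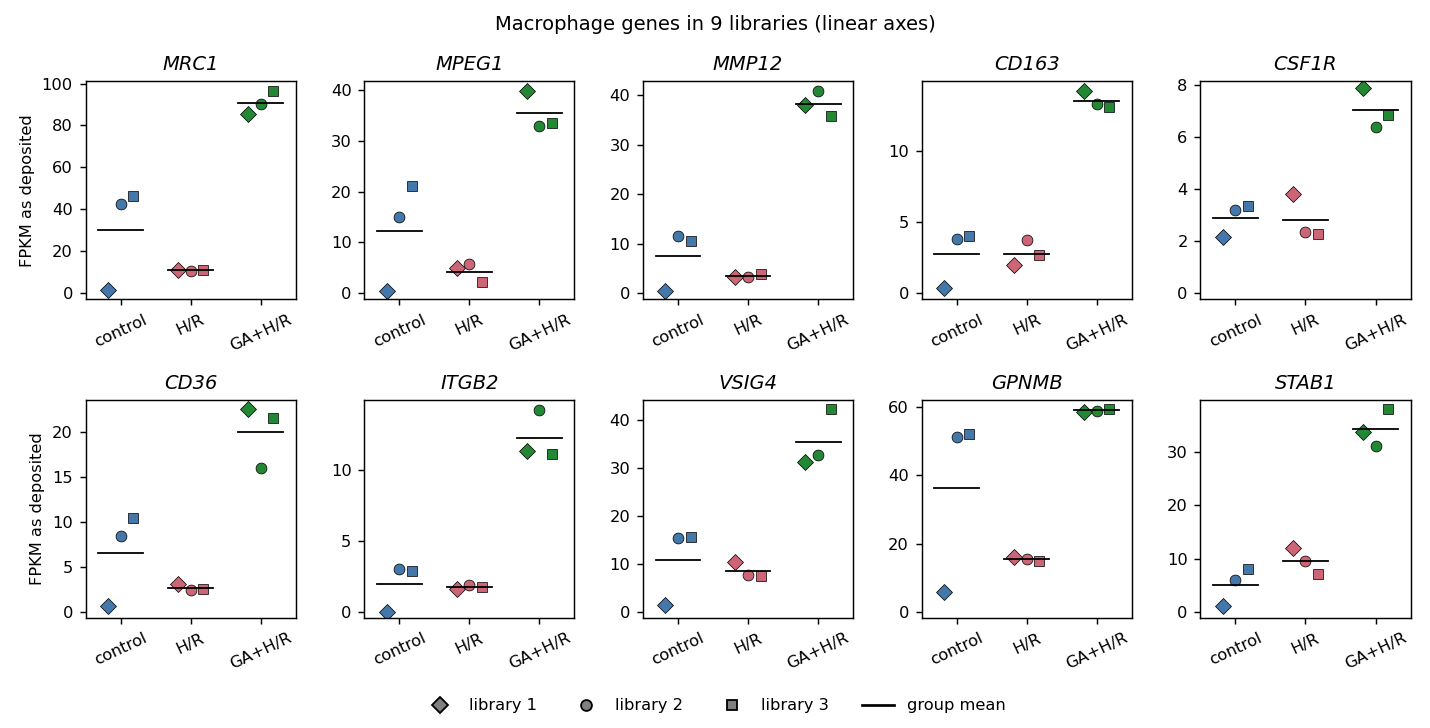
FPKM as deposited (vertical axes, linear, a separate range for each gene) of the 10 members in the control, H/R and GA+H/R libraries; symbols mark libraries 1 to 3 and bars the group means. Every GA+H/R point lies above all H/R points, and control 1 is the lowest of the 9 libraries in every panel, for example at 1.55 FPKM for MRC1 against 42.6 and 46.5 in the other controls.

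The GA+H/R libraries were also above all 3 controls for all 10 members, on deposited FPKM and relative to the median locus; this held for 3.53% and 24% of all loci. This contrast was used in the choice too. Set against the higher of controls 2 and 3, the GA+H/R mean of deposited FPKM was 1.13 times for GPNMB, 1.67 times for MPEG1, 1.92 times for CD36 and 1.95 times for MRC1. It was 3.29 times for MMP12, 3.36 for CD163, 4.03 for ITGB2 and 4.31 for STAB1. Relative to the median locus, the GA+H/R mean was 6.89 times the mean of the 3 controls for GPNMB and 29.2 times for STAB1, the ends of the range. The contrasts of gallic acid with H/R and with control share the GA+H/R libraries.

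The control libraries were not used in the choice of members beyond being lower than GA+H/R, and for 9 of 10 members they differed among themselves more than the libraries of either other group. Control 1 was the lowest of all 9 libraries for 10 of 10 members, whereas it was the lowest for 2.04% of 10956 loci on deposited FPKM and for 17.3% relative to the median locus. For 9 of 10 members controls 2 and 3 were both at least 3 times control 1, which held for 1.18% of loci (1.37% relative to the median locus). MPEG1 was 33.6 and 47.5 times control 1 in controls 2 and 3, MRC1 27.5 and 30.01 times, MMP12 21.8 and 20.05 times, and CD36 13.7 and 16.9 times. VSIG4, CD163, GPNMB and STAB1 were 5.27 to 11.3 times as high. CSF1R was the exception, at 1.47 and 1.55 times. The coefficient of variation of the controls was 70.1% to 87.2% for the 9 members other than CSF1R, against 3.12% for MRC1, 3.70% for GPNMB and 43.1% for MPEG1 in H/R. Each mean over the controls therefore depends on how control 1 is counted.

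H/R was also set beside control, where no gallic acid was given. The controls were labelled day 0, whereas the H/R labels give no day. Injury and time or handling in culture therefore cannot be told apart in the comparison of H/R with control. That comparison did not choose the members, but it shares the H/R and the control libraries with the contrasts that did, so its p-values are not independent of the choice. Relative to the median locus 4 members rose and 0 fell; of the 10956 loci tested 57.6% were called, 29.2% as higher and 28.4% as lower. They were STAB1 (log2 difference 2.16 ± 0.41, SE, limma adjusted p = 0.00177), CSF1R (0.99 ± 0.19, adjusted p = 0.00189), CD163 (1.14 ± 0.36, adjusted p = 0.0239) and ITGB2 (0.91 ± 0.33, adjusted p = 0.0425). VSIG4 was at 1.33 ± 0.58 (adjusted p = 0.0797). MRC1, GPNMB, MMP12, CD36 and MPEG1 were between 0.40 and 0.71 with SE from 0.53 to 0.87 and adjusted p from 0.377 to 0.677. The median over the members was 0.81, beside 0.0028 over all loci.

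Those calls depended on the scale and on control 1. On deposited FPKM limma called 0 members in either direction (0 at an unadjusted p under 0.05), while 90.2% of loci were called, 4.18% as higher and 86% as lower; STAB1 was at 1.02 ± 0.45 (adjusted p = 0.0565) and MRC1 at -0.54 ± 0.93. Without control 1, relative to the median locus, 5 members rose and 2 fell, beside 30.9% and 28.5% of loci (59.4% in either direction). STAB1 was then at 1.60 ± 0.20 (adjusted p = 2.29e-04), CSF1R at 0.83 ± 0.18, CD163 at 0.65 ± 0.19, VSIG4 at 0.50 ± 0.17 and ITGB2 at 0.43 ± 0.13, while MRC1 fell by 0.55 (SE 0.08, adjusted p = 4.41e-04) and GPNMB fell by 0.30 (SE 0.06, adjusted p = 0.00353). On deposited FPKM without control 1, 0 members rose and 7 fell, beside 4.89% and 84.6% of loci (89.5% in either direction), from ITGB2 at -0.52 ± 0.12 to MRC1 at -1.92 ± 0.08; STAB1, CSF1R and CD163 were at 0.39, -0.18 and -0.40 (adjusted p = 0.0925, 0.331 and 0.0531). Under all 4 settings STAB1 was above 0 and had the highest value of the members, and MPEG1 and CD36 were among the 4 lowest.

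**Figure D2:**
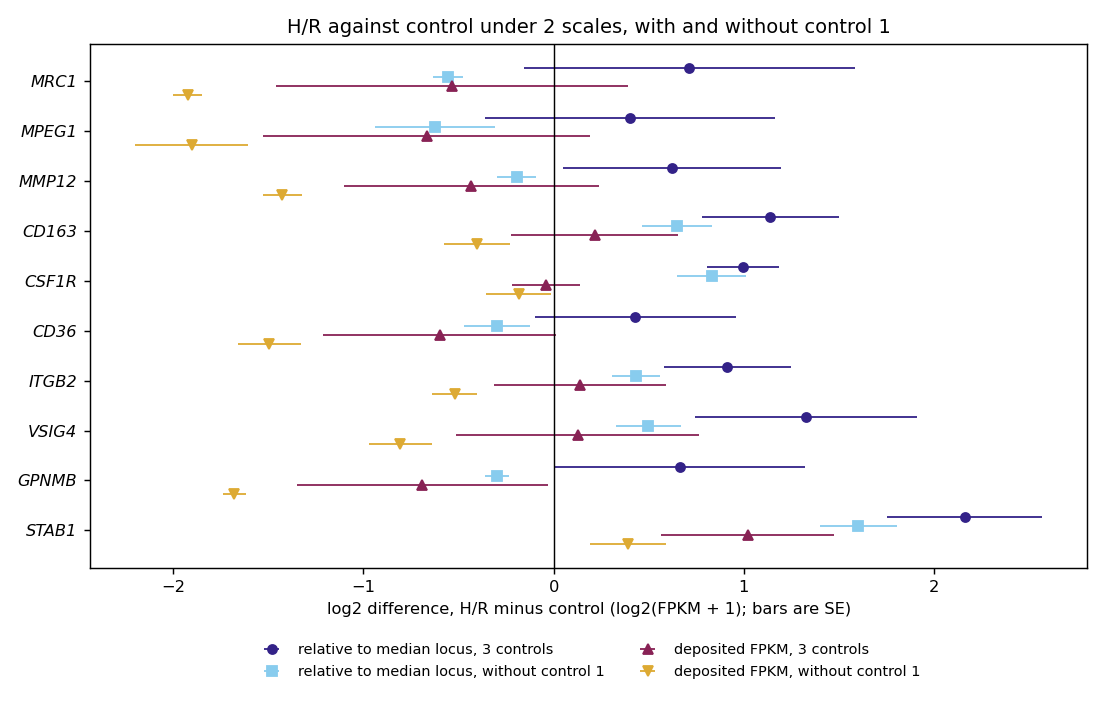
Log2 difference of H/R minus control (horizontal axis, log2(FPKM + 1), bars are SE) for each member on 2 scales, with all 3 controls and without control 1. STAB1 lies to the right of 0 in all 4 settings, whereas MRC1 moves from 0.71 with 3 controls relative to the median locus to -1.92 on deposited FPKM without control 1.

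Ratios between members within a library do not depend on the scaling between libraries, so they show how the members varied among themselves. MMP12 and MRC1 kept the closest ratio of the 36 pairs of the 9 members above 0 in all libraries: it ran from 0.230 to 0.453, a spread of 1.97 times, while MRC1 itself spanned 62.2 times and MMP12 76.8 times. Within that spread the MMP12 to MRC1 ratio was highest in GA+H/R, at 0.444, 0.453 and 0.372. It was at 0.344, 0.272 and 0.230 in the controls and at 0.301, 0.305 and 0.352 in H/R. MPEG1 to MRC1 was between 0.195 and 0.536. The median spread over the pairs was 4.34 times, and the largest was that of MPEG1 to CSF1R, at 30.7 times.

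STAB1 was out of step with MRC1. The ratio of STAB1 to MRC1 was 0.726, 0.139 and 0.171 in the controls, 1.07, 0.896 and 0.630 in H/R and 0.396, 0.345 and 0.394 in GA+H/R. H/R was thus above controls 2 and 3 and above all GA+H/R libraries, but overlapped control 1. The ratio of MRC1 to GPNMB was 0.269, 0.830 and 0.892 in the controls, 0.701, 0.681 and 0.756 in H/R and 1.46, 1.53 and 1.62 in GA+H/R, highest in all 3 GA+H/R libraries. With 3 libraries against 3 an exact permutation test cannot give a p under 0.1, and none was run.

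**Figure D3:**
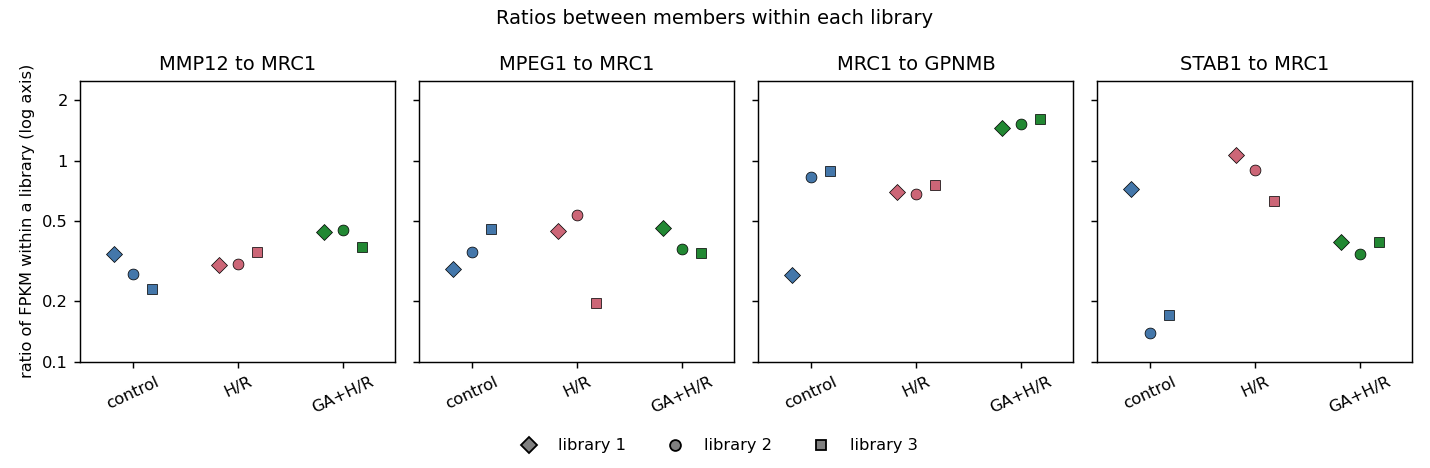
Ratio of FPKM of 2 members within each library (vertical axis, log scale) in the 3 groups, with symbols for libraries 1 to 3. MMP12 to MRC1 lies between 0.230 and 0.453 and is highest in the GA+H/R libraries, whereas STAB1 to MRC1 goes from 0.139 in control 2 to 1.07 in H/R 1.

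Loci with the nearest profiles were sought by the root mean square difference, over the 9 libraries, between each centred log2 profile and the median profile of the members. The members lay 0.24 (VSIG4) to 0.81 (CSF1R) from that median, and the median of 8654 other loci was 1.89. The members set that profile and were chosen for rising together in GA+H/R, so their small distances describe the choice. Of the other loci the nearest was LOC103351517, described in the table as C-C motif chemokine 7, a chemokine that attracts monocytes, at 0.32. It held 0.177, 4.71 and 5.04 FPKM in the controls, 4.19, 4.37 and 2.82 in H/R and 14.6, 17.8 and 15.3 in GA+H/R. CD53, a leukocyte tetraspanin, came next at 0.54, with 0, 2.55 and 3.02 FPKM in the controls, 0.434, 2.39 and 0.527 in H/R and 7.83, 9.72 and 8.83 in GA+H/R. CD84 (a SLAM family receptor of leukocytes, 0.58), LOC103350039 (described as SLAM family member 9, 0.69) and SRGN (serglycin, a proteoglycan of haematopoietic granules, 0.70) followed. The other 5 were PAM16, UCP2, CTSE, RAD9B and TRAK2, at 0.79 to 0.94. PAM16 was not low in control 1 on deposited FPKM, with 9.99 FPKM there against 9.16 and 9.35 in controls 2 and 3.

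**Figure D4:**
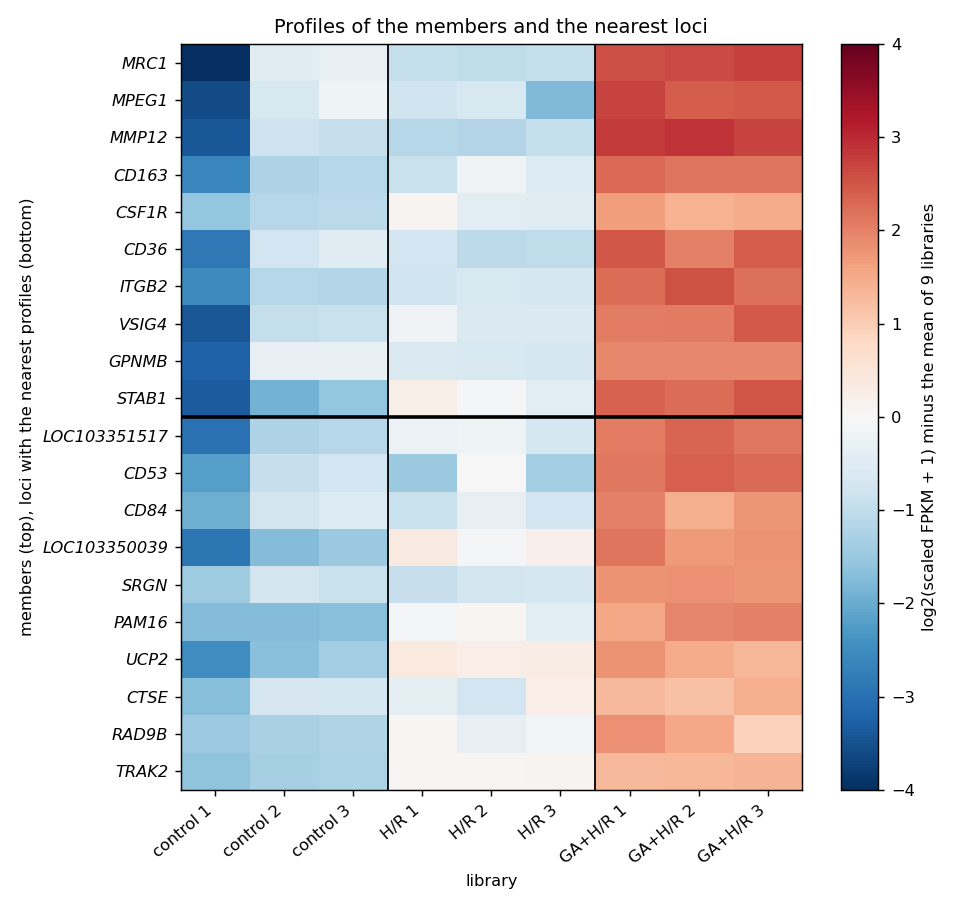
Log2(FPKM + 1) relative to the median locus, minus each gene's mean over the 9 libraries (colour), for the 10 members above the line and the 10 loci with the nearest profiles below it. Control 1 is the darkest blue column of the members and the GA+H/R columns are red in all rows.

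In the table's own annotation, 3 of the 10 members (MRC1, CD163 and STAB1) carried receptor-mediated endocytosis, a term held by 0.434% of annotated loci, and 3 (MRC1, CD36 and ITGB2) the phagosome pathway, held by 2.08% of loci with a pathway. The integral component of membrane term was on 5 members and 17.1% of loci. All 10 symbols matched a gene of the rabbit RefSeq annotation, in which 0 pairs of members are neighbours.

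Macrophage markers outside the members were few and mostly low. Of 22 listed symbols 13 matched a row, and in GA+H/R against H/R, relative to the median locus, limma tested 7. Of these, 3 (CD14, FCER1G and SIGLEC1) passed the filter on low values only through the GA+H/R libraries, so no test is given for them. Of the remaining 4, 2 rose, beside 18.7% of loci called higher (median 0.52, all loci 0.0040), and on deposited FPKM 1 rose and 1 fell, beside 1.69% and 64.3% of loci. Without a filter on low values, 6 of the 13 had every GA+H/R library above every H/R library on deposited FPKM, beside 2.49% of all loci. CD14, the co-receptor for lipopolysaccharide, was at 0.153, 0.163 and 0.289 FPKM in the controls, 0.150, 0.0871 and 0.117 in H/R and 0.611, 0.624 and 0.583 in GA+H/R. FCER1G, a signalling chain of Fc receptors, was between 0.0322 and 0.616 FPKM in control and H/R and at 1.27, 0.934 and 0.988 in GA+H/R. The 2 that rose were CLEC7A, the beta-glucan receptor, by 1.56 ± 0.24 (adjusted p = 0.00139, and 0.88 on deposited FPKM), and CTSS, a lysosomal protease, by 0.54 ± 0.12 (adjusted p = 0.00831), against -0.08 on deposited FPKM. TYROBP, an adaptor of myeloid receptors, was between 0 and 0.122 FPKM in control and H/R and at 0.517, 0.339 and 0.252 in GA+H/R, below the filter.

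Other markers differed from this on deposited FPKM. MSR1, the class A scavenger receptor, was at 5.13, 1.24 and 0.869 FPKM in the controls, 0.916, 0.927 and 1.17 in H/R and 0.990, 1.12 and 1.14 in GA+H/R, highest in control 1. Its log2 difference between GA+H/R and H/R was 0.51 ± 0.29 (adjusted p = 0.202), and without control 1 it rose by 0.48 ± 0.11 (adjusted p = 0.00997). MERTK, a receptor for apoptotic cells, was at 5.13 to 6.70 FPKM in H/R and 2.66 to 3.29 in GA+H/R, below H/R in all 3 libraries on deposited FPKM and at -0.25 ± 0.14 relative to the median locus (adjusted p = 0.204); on deposited FPKM it fell (-0.76, adjusted p = 6.81e-04). AIF1 lay between 0 and 0.424 FPKM with overlapping groups. The sum over the 13 markers was 43.7 to 53.3 FPKM in control, 15.0 to 16.6 in H/R and 16.0 to 16.7 in GA+H/R. CTSS and MERTK held most of it, with means of 26.3 and 17.8 FPKM in control, 6.95 and 5.82 in H/R and 6.54 and 3.02 in GA+H/R. Relative to the median locus the sum was 24.8 to 28.6, 22.3 to 24.7 and 37.9 to 39.4, highest in GA+H/R. The part of macrophage number in the members' levels was not tested.

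**Figure D5:**
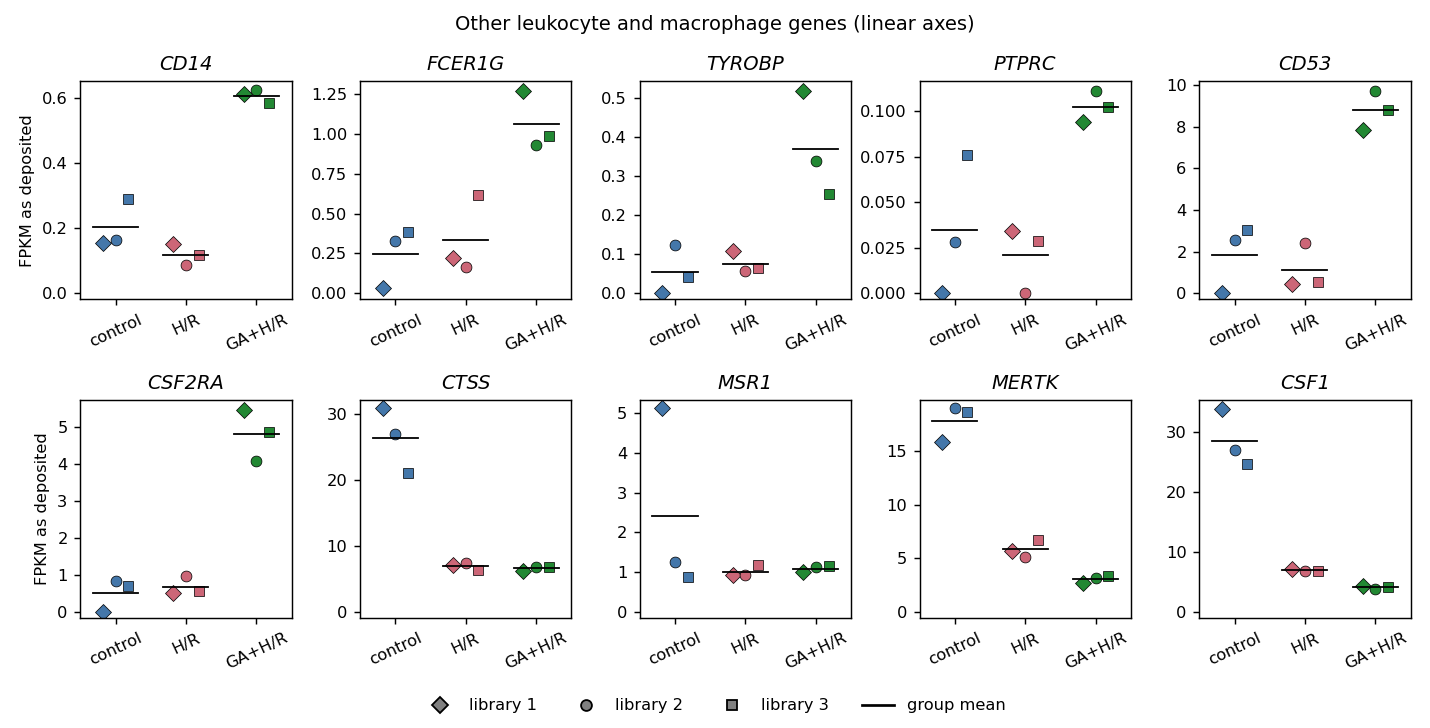
FPKM as deposited (vertical axes, linear, separate ranges) of 10 leukocyte, macrophage and CSF1 pathway genes that are no members, by group, with symbols for libraries 1 to 3 and bars for group means. CD14, FCER1G, TYROBP, PTPRC, CD53 and CSF2RA are highest in all GA+H/R libraries, and CTSS, MERTK and CSF1 are highest in the controls.

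PTPRC, the CD45 phosphatase of all leukocytes, was near 0 in every library. It was at 0, 0.0281 and 0.0760 FPKM in the controls, 0.0344, 0 and 0.0288 in H/R and 0.0940, 0.111 and 0.102 in GA+H/R. Of 15 pan-leukocyte genes with a row, 5 were tested, 1 of them (CD48) only through the GA+H/R libraries. Of the other 4, CD53 (3.19 ± 0.45, adjusted p = 0.00100) and CORO1A (0.68 ± 0.12, and 0.04 on deposited FPKM) rose with gallic acid, beside 18.7% of loci. On deposited FPKM 4 of the 15 were above H/R without overlap, beside 2.49% of all loci. LCP1 and LAPTM5, the most abundant of the list, were at 0.37 and 0.03 and did not pass; without control 1, LCP1 rose by 0.37 ± 0.05 (adjusted p = 6.04e-04), against -0.28 on deposited FPKM, where LAPTM5 fell by 0.62. Lymphocyte and mast cell lists were lower still: 6 T and NK cell genes summed to at most 0.473 FPKM, 2 B cell genes to at most 0.193 and 3 mast cell genes to at most 0.179, and no gene of these lists was tested. Markers of the non-macrophage cells that also make CD36, STAB1 or GPNMB were few. PECAM1, which endothelium and leukocytes make, was at 0.453 to 0.583 FPKM in H/R and 1.05 to 1.43 in GA+H/R, and passed the filter only through the latter. The other endothelial genes tested were FLT1 and EMCN, at -0.16 and 0.05 between GA+H/R and H/R; FLT1 was at 10.2 to 14.1 FPKM in control and 0.596 to 3.34 in the other groups. In the adipocyte list LEP, its most abundant gene, was at 267 to 585 FPKM in control, 169 to 184 in H/R and 102 to 105 in GA+H/R (-0.09, adjusted p = 0.773), while ADIPOQ was listed at 0 in all GA+H/R libraries. In the melanocyte and osteoclast list PMEL, MLANA and ACP5 were at or under 0.283 FPKM in every library while OCSTAMP, a fusion protein of osteoclasts and the 1 gene tested, rose by 0.50 (adjusted p = 0.0109), against -0.10 on deposited FPKM.

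Close relatives of the members moved otherwise. MRC2, the collagen-binding relative of MRC1, fell by 1.07 ± 0.15 in GA+H/R against H/R (adjusted p = 9.74e-04), from 73.6 to 77.0 FPKM down to 21.7 to 23.4, while PLA2R1 was at -0.145 ± 0.09 (it fell by 0.79 on deposited FPKM) and LY75 was at or under 0.023 FPKM throughout. Of 11 other scavenger receptors with a row, 7 were tested and 4 fell, beside 15.2% of loci called lower: LRP1, an endocytic receptor of fibroblasts and macrophages, by 0.93 ± 0.11 (adjusted p = 3.72e-04), SCARF2, SCARA3 and the lysosomal SCARB2. STAB2, the endothelial relative of STAB1, was at 9.09, 43.8 and 35.4 FPKM in the controls, 1.94, 3.23 and 2.81 in H/R and 0.627, 0.795 and 0.485 in GA+H/R. This was the reverse order of STAB1 between H/R and GA+H/R on deposited FPKM (-1.15 ± 0.47, limma adjusted p = 0.0544). Relative to the median locus STAB2 was at -0.98 ± 0.49 (adjusted p = 0.153), and at -0.94 ± 0.17 without control 1 (adjusted p = 0.00302). Of the alpha chains that pair with ITGB2, ITGAL was at or under 0.572 FPKM and ITGAX at or under 0.032. The alpha chains ITGAM and ITGAD had no row under their symbols, so their levels are unknown. TLN1, which links integrins to actin and is made by most cells, fell by 0.66 ± 0.09.

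The ligands of CSF1R were measured beside it. CSF1 fell in H/R against control (-0.54 ± 0.10, adjusted p = 0.00166) and was at -0.08 ± 0.10 in GA+H/R against H/R (adjusted p = 0.548; it fell by 0.64 on deposited FPKM), going from 24.7 to 33.9 FPKM in control to 3.77 to 4.30 in GA+H/R. IL34, the second ligand, rose in both steps relative to the median locus, by 0.67 ± 0.11 and 0.47 ± 0.11 (adjusted p = 9.99e-04 and 0.0137). On deposited FPKM it instead fell in H/R against control (-0.76, limma adjusted p = 8.38e-05), from 69.8 to 76.0 FPKM down to 37.8 to 48.2. Its deposited FPKM overlapped between H/R and GA+H/R (33.6 to 40.5). Of 7 genes of the CSF1 receptor and myeloid factor list tested with gallic acid, 1 (CSF2RA) passed the filter only through the GA+H/R libraries. Of the other 6, IL34 rose and RUNX1 fell, beside 18.7% and 15.2% of loci, and on deposited FPKM 0 rose and 5 fell. CSF2RA, the alpha chain of the GM-CSF receptor, went from 0.517 to 0.969 FPKM in H/R to 4.08 to 5.47 in GA+H/R and was listed at 0 in control 1. The factors CEBPA and CEBPB were at 0.15 and -0.02 and did not pass, and both fell on deposited FPKM, by 0.47 and 0.68.

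The genes of lysosomes, lipids and haem and iron that were tested showed smaller differences than the members between GA+H/R and H/R relative to the median locus. The members were chosen for their rise in GA+H/R and these genes were not, so the gap in size describes the choice. Of 15 genes of lysosomes and their MiT/TFE regulators 3 rose with gallic acid relative to the median locus, a share near the 18.7% of all loci. They were MITF (0.85 ± 0.11), ATP6V0D2 (0.72 ± 0.20) and CD63 (0.29 ± 0.10). Without control 1, 8 rose and 2 fell, beside 22.8% and 20.2% of loci, and on deposited FPKM 11 fell, beside 64.3% of loci. CTSB and LAMP1 were at 0.0019 and -0.05. Of 8 lipid genes tested 2 rose, beside 18.7% of loci. They were ABCA1, the cholesterol exporter, and LIPA, the lysosomal lipase, by 0.94 ± 0.11 and 0.32 ± 0.11, against 0.34 and -0.34 on deposited FPKM. LPL was at 0.61 ± 0.25 (adjusted p = 0.0891), while without control 1 it rose by 0.60 (adjusted p = 0.00279) and on deposited FPKM it was at -0.03. Of 7 genes of haem and iron handling 3 rose, beside 18.7% of loci: FTL and FTH1, the ferritin chains, by 0.52 and 0.44 and the biliverdin reductase BLVRB by 0.47. All 7 were lower than in H/R without overlap on deposited FPKM, as were 48% of loci. SEPP1, the selenium carrier that resident macrophages also make, rose by 2.67 ± 0.23 (adjusted p = 7.65e-05) from 16.5, 12.4 and 15.6 FPKM to 60.5, 59.8 and 63.6. It was the 1 that rose of 4 tested in the list of resident or alternatively activated macrophage genes, beside 18.7% of loci. Its controls were at 45.4, 85.3 and 74.7 FPKM, and it fell in H/R against control (-0.685 and on deposited FPKM -2.10, limma adjusted p = 0.0311 and 7.22e-06). Against control, GA+H/R was higher relative to the median locus (1.98, adjusted p = 6.08e-05) but overlapped control on deposited FPKM (-0.11, adjusted p = 0.619). FOLR2, a folate receptor of resident macrophages, was at 0.127, 0.746 and 0.859 FPKM in H/R and at 1.38, 2.68 and 1.502 in GA+H/R, and passed the filter only through the latter. HMOX1, haem oxygenase, ARG1 and TGM2 were at -0.47, -1.15 and -0.56 and did not pass. Without control 1, HMOX1 and TGM2 fell (adjusted p = 0.00424 and 0.0119), and on deposited FPKM all 3 fell (adjusted p = 0.0121, 0.0316 and 0.00689).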

How the data were processed

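Per the labels, total RNA of 9 libraries was sequenced after preparation with a TruePrep kit. The authors deposited FPKM values, 1 column for each library, per the file headers; aligner, quantifier and scaling between libraries are not given in the sources used here, and the submitters' processing notes name mouse builds although the transcripts are rabbit, so no coordinates are printed. The table also holds the authors' p-value and q-value, deposited for a single test across the groups. Members and lists were chosen with earlier results of these data known. A member's row was found by its symbol.

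FPKM were divided by a median-ratio factor per library, loci at 1 or more in at least 3 libraries were kept, and log2(FPKM + 1) was fitted with limma 3.58.1 in R 4.3.3 (group means, all 9 libraries, eBayes with trend and robust settings). Two-sided p-values were adjusted over all loci tested (Benjamini-Hochberg) and called under 0.05; fold changes on this scale understate those of low genes. All 10 members passed the filter, also without the GA+H/R libraries; list genes that passed only through those libraries are given as values. The procedure was tested on simulated data. Members carry p-values in H/R minus control only. Named genes were the members, a set of leukocyte reference genes and the 4 most abundant measured genes of each of 21 lists; CD48, CSF2RA, FOLR2, SIGLEC1, SCARF2, MITF, ATP6V0D2, CD63, ABCA1 and BLVRB, and in the closing section CCL2, CCL4, CXCL10 and C1QC, were named after their values were seen. Same-numbered libraries did not deviate together, with r from -0.018 to 0.026 over 9 pairs.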

Additional observations from a re-analysis of the deposited data

How the results depend on the processing

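Depth is unknown and each group has 3 libraries. Loci called numbered 6315 for H/R against control, 3712 for gallic acid against H/R and 7584 for gallic acid against control; on deposited FPKM they were 9922, 7255 and 10357, of which 460, 186 and 451 were higher against 3203, 2050 and 3693, and without control 1 on deposited FPKM 7643 were called in the second. Leaving out 1 library at a time gave 5424 to 6396, 2709 to 4556 and 6803 to 7431. With the replicate number as a block they were 6142, 3385 and 7441, and 4 members were called in H/R minus control, as without it; the numbers did not pair the libraries. The 4 members called there became 0 on deposited FPKM, 2 after quantile normalization, with a pseudocount of 0.1, with no filter or with only the 2 groups compared, 7 without control 1 on deposited FPKM (added after the data were seen), and 2 to 7 with 1 library left out; 2 were left without H/R 2 or without H/R 3. On deposited FPKM the log2 difference turned to -0.54 for MRC1, -0.67 for MPEG1, -0.43 for MMP12, -0.0396 for CSF1R, -0.60 for CD36 and -0.69 for GPNMB, and without control 1 there to -1.92, -1.90, -1.43, -0.18, -1.49 and -1.68, and to -0.40 for CD163, -0.52 for ITGB2 and -0.81 for VSIG4. With 1 library left out it ran from -0.55 to 1.36 for MRC1, -0.63 to 1.01 for MPEG1, -0.19 to 1.01 for MMP12, -0.30 to 0.84 for CD36 and -0.30 to 1.16 for GPNMB, the low ends being those without control 1. The cause was not tested. In the contrasts with gallic acid 0 of the members' values changed sign, and 32 values against H/R (148 did not) and 25 against control (155 did not) moved by more than the spread between libraries.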

Other observations

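CCL2, a monocyte chemokine, was at 0.530, 1.02 and 0.919 FPKM in the controls, 0.287, 0.391 and 0.353 in H/R and 2.58, 4.02 and 2.54 in GA+H/R, and passed the filter on low values only through the latter. CCL4 was listed at 0 in all GA+H/R libraries, and CXCL10 overlapped between the groups. Of the 6 other genes of inflammatory macrophages tested, 1 rose, beside 18.7% of loci. It was CXCL8, a neutrophil chemokine, by 0.90 ± 0.27 (limma adjusted p = 0.0299), against 0.25 on deposited FPKM (adjusted p = 0.396). IL6 was at -1.18 (adjusted p = 0.0761); it fell without control 1 (-1.17, adjusted p = 0.00899) and on deposited FPKM (-1.72, adjusted p = 0.00696). PTGS2 was at -0.03 and fell by 0.70 on deposited FPKM.

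The calgranulins S100A8 and S100A9, abundant in neutrophils and also made by epithelial cells and monocytes, rose by 0.98 ± 0.22 and 1.11 ± 0.16 with gallic acid (adjusted p = 0.00889 and 0.00108, but 0.277 and 0.0611 on deposited FPKM), from 79.9 to 80.8 FPKM to 95.3 to 106 and from 36.0 to 41.5 to 50.5 to 54.1. Unlike the members, both were highest of the controls in control 1, at 152 and 45.5 FPKM. C1QC, a chain of the complement component C1q that macrophages make, was between 0.0287 and 0.0761 FPKM in control and H/R and at 0.456, 0.411 and 0.376 in GA+H/R.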
